A study of Oryza sativa with 32 samples.

Results

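The pseudo-response regulators PRR1, PRR73 and PRR95 are transcriptional regulators of the plant circadian clock, and their transcript levels were compared across roots and shoots of transgenic and wild type rice. The members were chosen as every probe set that the array's annotation table assigns to PRR1 (LOC4330000), PRR73 (LOC4332464) or PRR95 (LOC4347674), and the genes were picked with earlier results of these data known. This gave 4 probe sets of 3 genes, out of 57194 probe sets that are not controls and 17905 genes with a probe set of their own. PRR1 and PRR95 have 1 probe set each and PRR73 has 2, whose positions along the transcript are not given in the sources used here. The rice gene table lists 9 transcripts for PRR73 and 1 each for PRR1 and PRR95.

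Total RNA was hybridised to 32 one-colour rice arrays, with 4 arrays in each of 8 groups that the labels call biological replicates. The groups were roots of AGR1/7, roots of AGR1/8, roots of AGR3/8 and roots of wild type, and shoots of the same 4 genotypes. Each AGR line over-expresses HvAlaAT, the alanine aminotransferase of barley, from the rice promoter OsANT1, which the labels term root-specific, and the 3 lines are independent. Alanine aminotransferase moves an amino group between alanine and glutamate, and the series concerns nitrogen-efficient rice. Wild type was the cultivar Nipponbare. All plants, wild type included, were kept in hydroponics with 5 mM ammonium as nitrogen source, at 28 °C and 70% relative humidity. The light regime was shared too, with 14 h of day at 750 µE and 10 h of night. RNA was taken at maximum tillering and at mid-day, so each value is a level at a single time of day and says nothing of the phase or amplitude of a rhythm. An empty-vector or null-segregant line was not analysed here.

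In plants the PRR proteins are repressors that peak one after another through the day and evening. They hold down the morning MYB factors of the LHY and CCA1 type, which in turn repress evening genes, and this mutual repression is a core loop of the clock. The pathway is known best from Arabidopsis, where the homologue of PRR1 is called TOC1 and acts in the evening, and where relatives of PRR73 and PRR95 act in the day. In rice, the family member PRR37 is known for delaying heading under long days. Levels are given here without sequences.

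The tissue labels were checked against marker genes. The 12 probe sets of 5 photosynthesis genes summed to between 334.8 and 1260.3 intensity units in roots and between 55558.7 and 133616 in shoots. The 6 probe sets of root transporter genes summed to between 11671.9 and 19303 in roots and between 275 and 450.8 in shoots. Some arrays differed from the rest of their group. Replicate 1 of root wild type correlated less with its replicates (mean r = 0.937) than any other array did, and had the lowest array weight (0.194). The brightest percent of probe sets began at an intensity of 3788.58, 3620.44 and 3018.46 on replicates 2, 3 and 4 of shoot AGR3/8, against 2594.16 on its replicate 1 and between 2448.64 and 2668 on the shoot wild type arrays. The 3′ to 5′ signal ratio of control probe sets is a sign of RNA quality. On 1 pair for GAPDH it ran from 2.43 to 4.80 in root AGR1/7, 6.76 to 57 in root AGR1/8, 2.54 to 4.68 in root AGR3/8 and 4.84 to 18.3 in root wild type, so that AGR1/7 and AGR3/8 lay below wild type. A further GAPDH pair gave 2.78 to 3.40, 2.30 to 3.24 and 2.52 to 2.94 in roots of AGR1/7, AGR1/8 and AGR3/8, against 2.25 to 3.29 in wild type roots, and every line overlapped wild type. An actin pair gave 4.75 to 5.99, 5.22 to 6.13 and 4.41 to 5.54 in roots of those lines, against 4.99 to 5.58 in wild type roots, again with overlap. In shoot, replicates 2 and 3 of AGR3/8 had 4.40 and 3.76 on the further GAPDH pair, against 2.51 to 2.73 in wild type shoots. On the actin pair they had 9.12 and 12.4, against 5.64 to 6.89, and replicate 2 of AGR1/7 had 9.38. Replicate 4 of AGR3/8 had 2.74 and 6.42 on these pairs. On the first GAPDH pair, AGR3/8 shoots (2.14 to 21.9) overlapped wild type shoots (1.52 to 27.2). The part of RNA quality in the root and shoot differences was not tested. The summed shoot markers in root were 334.8 to 417.2 in AGR1/7, 441.6 to 760 in AGR1/8, 471.4 to 1260.3 in AGR3/8 and 376.9 to 686.4 in wild type.

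The first question was whether the PRR transcripts differed between roots of the transgenic lines and wild type roots. All 3 PRR genes were higher in the transgenic roots. PRR1 and PRR95 were called in each of the 3 lines, and PRR73 in some of them. The values are intensities on a linear scale as deposited, and differences are log2 differences of intensity + 16.

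PRR1, the rice counterpart of the evening repressor TOC1, had intensities of 401.5, 336.9, 294.2 and 343.6 in AGR1/7 roots. It had 358.3, 291.4, 320.8 and 290.1 in AGR1/8 roots and 328.2, 290.8, 327.7 and 303.9 in AGR3/8 roots, against 153.8, 242.5, 208.9 and 193.3 in wild type roots. All 12 transgenic roots lay above the highest wild type root, and the ranges of the 3 lines overlapped one another. The mean of the 3 lines was 0.67 ± 0.10 log2 above wild type (SE, limma adjusted p = 0.00210). Each line passed the test alone, with 0.75 in AGR1/7 (adjusted p = 0.00784), 0.63 in AGR1/8 (adjusted p = 0.00875) and 0.62 in AGR3/8 (adjusted p = 0.0131). Without replicate 3 of AGR3/8 the difference of that line was 0.60 and narrowly missed the call (adjusted p = 0.0504).

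PRR95, a day-phase member of the family, stood at 1061.6, 995.8, 915.2 and 956.3 in AGR1/7 roots. Its intensities were 1054.9, 949.9, 925.2 and 957.8 in AGR1/8 roots and 960.5, 847.6, 974.5 and 1050.3 in AGR3/8 roots, against 414.2, 649.7, 575.4 and 749.8 in wild type roots. Again all 12 transgenic roots lay above the highest wild type root. Means were 982 ± 62.3 in AGR1/7, 972 ± 57.0 in AGR1/8 and 958 ± 83.6 in AGR3/8, against 597 ± 141 in wild type, whose roots spread the most (SD, n = 4). The lines exceeded wild type by 0.73 log2 in AGR1/7 (adjusted p = 0.0122), 0.72 in AGR1/8 (adjusted p = 0.00552) and 0.69 in AGR3/8 (adjusted p = 0.0110), and their mean by 0.71 ± 0.11 (SE, limma adjusted p = 0.00220).

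PRR73, a relative of Arabidopsis PRR7, was measured by 2 probe sets, both of which carry the suffix that marks probes shared by several transcripts of a gene. On the first, whose name ends in S1_a_at, AGR1/7 roots had 658.7, 603.7, 640.1 and 599.5, AGR1/8 roots 558.3, 588.4, 604.6 and 653.9, and AGR3/8 roots 654.9, 647.0, 623.0 and 642.6, against 415.8, 519.5, 472.2 and 542.0 in wild type roots. On the second, ending in S2_a_at, AGR1/7 roots had 2416.2, 2197.3, 1992.4 and 1945.1, AGR1/8 roots 2005.1, 2096.5, 2198.4 and 2087.7, and AGR3/8 roots 2374.8, 2624.4, 2672.9 and 2434.3, against 1476.8, 2071.0, 1755.9 and 1932.3 in wild type roots. The first probe set separated all 12 transgenic roots from wild type. The second separated 9 of 12, with 2 arrays of AGR1/7 and 1 of AGR1/8 below the highest wild type root.

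The mean of the lines exceeded wild type by 0.35 ± 0.07 log2 on the first PRR73 probe set (SE, limma adjusted p = 0.0126) and by 0.32 ± 0.08 on the second (adjusted p = 0.0336). The first gave 0.36 in AGR1/7 (adjusted p = 0.0410), 0.30 in AGR1/8 (adjusted p = 0.0862, 95% interval 0.12 to 0.48) and 0.39 in AGR3/8 (adjusted p = 0.0190). The second gave 0.24 in AGR1/7 (adjusted p = 0.179, interval 0.04 to 0.45), 0.22 in AGR1/8 (adjusted p = 0.296, interval 0.01 to 0.43) and 0.49 in AGR3/8 (adjusted p = 0.0139). AGR3/8 was the line in which both PRR73 probe sets passed, and several of the PRR73 calls were lost when a single array was left out. The mean call of the second probe set was lost without root wild type 1 (0.23 log2, adjusted p = 0.127), root wild type 3 (0.31, adjusted p = 0.0771), AGR1/8 2 (0.32, adjusted p = 0.0519) or 3 (0.31, adjusted p = 0.0532), and AGR3/8 2 (0.31, adjusted p = 0.0566) or 3 (0.31, adjusted p = 0.0574). The AGR1/7 call of the first probe set held in 3 of 16 fits that left out an array, those without root wild type 2, root wild type 4 or AGR1/8 4, with adjusted p up to 0.0893 in the others. Its AGR3/8 call was lost without AGR3/8 2 (0.39, adjusted p = 0.0592), 3 (0.41, adjusted p = 0.0542) or 4 (0.39, adjusted p = 0.0514), and that of the second probe set without AGR3/8 3 (0.46, adjusted p = 0.0542).

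**Figure D1:**
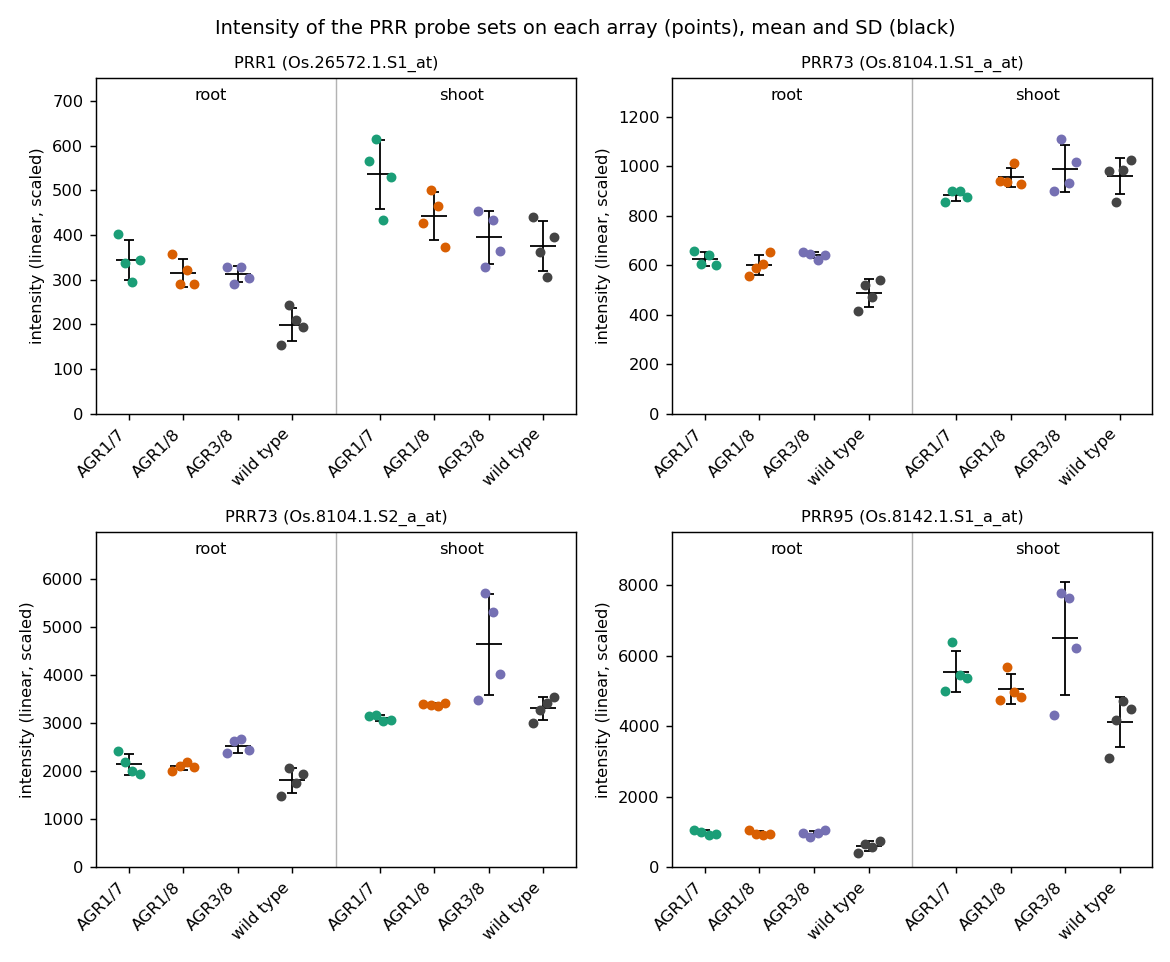
Intensity of the 4 PRR probe sets (y axis, linear scale as deposited, starting at 0) on each array, for the 3 lines and wild type in root (left of each panel) and shoot (right). Points are arrays, and black marks are group means with SD (n = 4). In root, all 12 transgenic arrays lie above all wild type arrays for PRR1, for PRR95 and for the first PRR73 probe set.

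In root, 4 of 4 PRR probe sets were called higher for the mean of the lines, where 3.28% of the 38130 probe sets tested were called higher and 5.32% were called in either direction. Their median difference was 0.51 log2, and that of all tested probe sets was 0.03. The PRR genes were chosen with earlier results of these data known, so these shares are a description and not a test of the set. By line, 3 of 4 were called higher in AGR1/7 (1.52% of all tested), 2 of 4 in AGR1/8 (1.25%) and 4 of 4 in AGR3/8 (3.20%). Across all tested probe sets, 0.249% were called higher in all 3 lines, and PRR1 and PRR95 were among them. Probe sets with all 12 transgenic roots above all wild type roots made up 1.16% of those tested. The share of probe sets with a larger mean difference was 1.19% for PRR1, 0.981% for PRR95, and 7.37% and 9.15% for the PRR73 probe sets. Each line was compared with the same 4 wild type roots and the 12 transgenic arrays represent 3 lines, so they are not 12 independent replicates, and p-values over them reflect the spread between arrays. In bulk tissue, fewer cells of a type and less RNA per cell cannot be told apart.

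Root wild type 1 was the lowest root array for every PRR probe set. Without it the mean difference was 0.56 log2 for PRR1 (adjusted p = 0.00546), 0.55 for PRR95 (adjusted p = 0.00223) and 0.28 for the first PRR73 probe set (adjusted p = 0.0344). With the line treated as a random unit, PRR1 (adjusted p = 0.0154) and PRR95 (adjusted p = 0.0144) were called, and PRR73 was not (adjusted p = 0.0628 and 0.162 on its probe sets). This fit used a correlation shared by all probe sets, had wild type as a single unit and still counted arrays as its units of error. Its calls therefore do not show replication over lines.

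The 3 lines were then compared with each other in root. No PRR probe set passed the test for differences among the lines, which 2.99% of all tested probe sets did. The intervals leave room for moderate differences. For PRR95 the interval of AGR3/8 minus AGR1/7 was -0.32 to 0.25 log2, and for PRR1 it was -0.39 to 0.14. The widest separation was on the second PRR73 probe set, where AGR3/8 exceeded AGR1/8 by 0.27 (adjusted p = 0.234, interval 0.06 to 0.47).

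The same question was asked of shoots. No PRR probe set was called for the mean of the lines by limma, against 1.57% of all tested probe sets. PRR95 and PRR1 had means above wild type with intervals that did not include 0, and unadjusted p values of 0.00388 and 0.0222. None was called in a single line either, where 1.60% of all tested were called in AGR1/7, 1.82% in AGR1/8 and 0.868% in AGR3/8. No PRR probe set had all 12 transgenic shoots above wild type, as 0.556% of those tested did.

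PRR95 had shoot intensities of 5006.1, 6368.7, 5445.8 and 5353.4 in AGR1/7, 4726.2, 5677.4, 4952.6 and 4826.0 in AGR1/8, and 4322.0, 7782.0, 7625.8 and 6198.8 in AGR3/8, against 3099.4, 4160.5, 4720.2 and 4472.6 in wild type. All 12 transgenic shoots lay above the wild type mean and 11 of 12 above the highest wild type shoot, the exception being replicate 1 of AGR3/8. Replicate 1 was the lowest shoot of each genotype. The highest shoots were replicates 2 and 3 of AGR3/8, whose ratios on the further GAPDH pair and the actin pair lay above those of wild type shoots. The mean difference was 0.46 log2 (95% interval 0.17 to 0.75, limma adjusted p = 0.114). With a block for the replicate number it was called (adjusted p = 0.0282). By line it was 0.44 in AGR1/7 (adjusted p = 0.260), 0.31 in AGR1/8 (adjusted p = 0.475) and 0.63 in AGR3/8 (adjusted p = 0.0777). Without replicate 1 of shoot AGR3/8 the mean of the lines was called (0.52, adjusted p = 0.0142), and so was AGR3/8 alone (0.82, adjusted p = 0.00202). Quantile normalization, which levels the bright end of the AGR3/8 arrays, left 0.14 in AGR3/8 (adjusted p = 0.485) and a mean of 0.25 that was called (adjusted p = 0.0477).

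PRR1 had shoot intensities of 566.8, 615.6, 433.3 and 530.2 in AGR1/7, 428.2, 500.9, 464.8 and 374.4 in AGR1/8, and 454.0, 328.8, 434.9 and 363.6 in AGR3/8, against 439.6, 361.3, 305.9 and 396.1 in wild type. The groups overlapped, with 3 of 4 AGR1/7 shoots, 2 of 4 AGR1/8 shoots and 1 of 4 AGR3/8 shoots above the highest wild type shoot. The mean difference was 0.27 log2 (interval 0.04 to 0.49, limma adjusted p = 0.259). AGR1/7 gave 0.50 (adjusted p = 0.0625), AGR1/8 gave 0.23 (adjusted p = 0.485) and AGR3/8 gave 0.07 (adjusted p = 0.868). The AGR1/7 difference was called without shoot wild type 1 (0.57, adjusted p = 0.0358) or AGR1/7 3 (0.59, adjusted p = 0.0362). Under 8 other settings it was 0.44 to 0.53 and stayed uncalled in 5, with limma adjusted p from 0.0210 to 0.127.

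For the mean of the lines, the PRR73 probe sets had the smallest shoot differences of the PRR genes, though in AGR3/8 the second gave 0.46, against 0.07 for PRR1. On its first probe set the shoots had 856.8, 901.1, 902.7 and 875.8 in AGR1/7, 941.0, 937.9, 1014.8 and 930.9 in AGR1/8, and 899.0, 1111.7, 934.3 and 1018.6 in AGR3/8, against 981.4, 856.7, 986.7 and 1026.3 in wild type. The mean difference was -0.03 log2 with an interval of -0.17 to 0.11 (limma adjusted p = 0.910), and each line overlapped wild type.

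On the second probe set the AGR1/7 shoots had 3152.7, 3156.4, 3041.2 and 3055.8 and the AGR1/8 shoots 3398.1, 3378.1, 3350.7 and 3419.3. The AGR3/8 shoots had 3482.6, 5710.1, 5316.6 and 4025.0, against 2993.7, 3263.3, 3424.7 and 3544.8 in wild type. Replicates 2, 3 and 4 of AGR3/8, whose bright end was also higher, lay above every other shoot. Replicates 2 and 3 also had the raised GAPDH and actin ratios given above. The mean difference was 0.14 log2 (interval -0.08 to 0.36, limma adjusted p = 0.640) and that of AGR3/8 was 0.46 (adjusted p = 0.0869). This AGR3/8 difference was 0.59 without AGR3/8 1 (adjusted p = 0.00324) and 0.05 after quantile normalization (adjusted p = 0.758). AGR3/8 exceeded AGR1/7 by 0.55 on this probe set (adjusted p = 0.0333, where 2.12% of all tested were called), the only PRR call between lines in shoot. The test over all 3 lines gave an adjusted p of 0.0504, where 2.26% of all tested probe sets were called. It passed without shoot wild type 1 (adjusted p = 0.0464), AGR3/8 1 (adjusted p = 0.00411) or AGR3/8 4 (adjusted p = 0.0446).

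**Figure D2:**
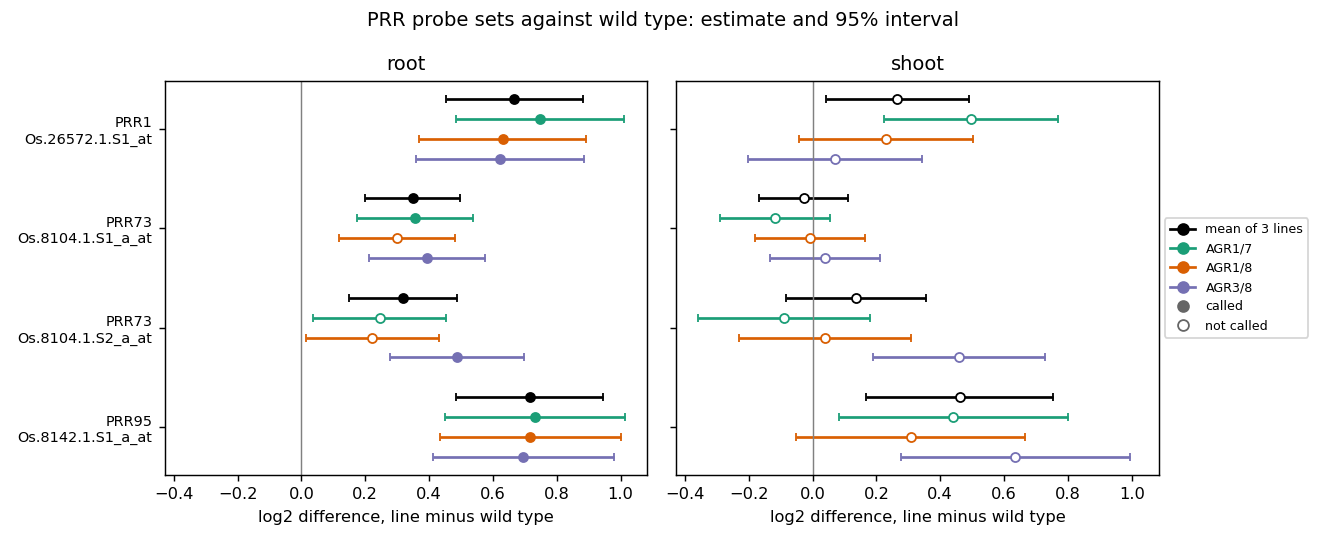
Log2 difference from wild type (x axis) of each PRR probe set (rows) for the mean of the 3 lines and for each line, in root (left) and shoot (right). Bars are 95% intervals of the limma fit, and filled points have an adjusted p under 0.05. The 4 means are filled in root, and no point is filled in shoot.

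A difference called in root and not in shoot is not by that shown to differ between tissues, so the transgenic effect in root minus that in shoot was tested in 1 fit of all 32 arrays. One of the 4 PRR probe sets passed, where 1.16% of all tested probe sets were called higher. It was the first PRR73 probe set, with 0.38 ± 0.09 log2 (SE, limma adjusted p = 0.0273). The call was lost without root wild type 1 (0.31, adjusted p = 0.0899), shoot wild type 3 (0.37, adjusted p = 0.0634) or shoot wild type 4 (0.35, adjusted p = 0.0670). By line this probe set gave 0.47 in AGR1/7 (adjusted p = 0.0207), 0.31 in AGR1/8 (adjusted p = 0.264) and 0.35 in AGR3/8 (adjusted p = 0.0827, and 0.0469 without root wild type 4). Of all tested probe sets, 1.48% were called higher in that contrast for AGR1/7, 0.296% for AGR1/8 and 1.38% for AGR3/8.

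The other PRR probe sets did not pass this test. PRR1 gave 0.40 (interval 0.09 to 0.71, adjusted p = 0.147), the second PRR73 probe set 0.18 (interval -0.08 to 0.45, adjusted p = 0.496) and PRR95 0.25 (interval -0.11 to 0.62, adjusted p = 0.491). For PRR95 a transgenic effect as large in shoot as in root therefore lies inside the interval. For PRR1 the AGR3/8 contrast was 0.55 (adjusted p = 0.103), and it was called without root wild type 2 (0.64, adjusted p = 0.0407).

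Levels of all 3 genes were lower in root than in shoot in every genotype. All 4 probe sets were called lower in root in all 4 genotypes, as were 18.8% of all tested probe sets. By genotype that share was 27.2% in AGR1/7, 25.5% in AGR1/8, 24.7% in AGR3/8 and 27.3% in wild type. PRR95 had the widest gap, with 982 ± 62.3 in root and 5544 ± 582 in shoot of AGR1/7, 972 ± 57.0 in root and 5046 ± 431 in shoot of AGR1/8, 958 ± 83.6 in root and 6482 ± 1607 in shoot of AGR3/8, and 597 ± 141 in root and 4113 ± 714 in shoot of wild type (SD, n = 4). Root minus shoot was -2.47 log2 in AGR1/7, -2.36 in AGR1/8, -2.70 in AGR3/8 and -2.76 in wild type, the largest limma adjusted p being 1.94e-14. The highest PRR95 root array, at 1061.6, lay below the lowest shoot array, at 3099.4.

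For PRR1, root minus shoot was -0.61 log2 in AGR1/7 (limma adjusted p = 0.000150), -0.47 in AGR1/8 (adjusted p = 0.00279), -0.31 in AGR3/8 (adjusted p = 0.0389) and -0.87 in wild type (adjusted p = 9.5e-07). The AGR3/8 call was lost without shoot AGR3/8 1 (-0.25, adjusted p = 0.134) or 3 (-0.27, adjusted p = 0.111), or without root AGR3/8 2 (-0.28, adjusted p = 0.0946) or 4 (-0.30, adjusted p = 0.0743). PRR73 gave values between -0.66 and -0.49 in the lines and -0.96 in wild type on its first probe set, and between -0.84 and -0.54 in the lines and -0.87 in wild type on its second. Quantile normalization reduced the gap of the second to -0.25 in AGR1/7, -0.37 in AGR1/8 and -0.12 in AGR3/8, the last no longer called (adjusted p = 0.260).

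Ordered by group mean, PRR1 was brightest in AGR1/7 shoots (536 ± 77.2), then AGR1/8 shoots (442 ± 54.0), AGR3/8 shoots (395 ± 59.0), wild type shoots (376 ± 56.5), AGR1/7 roots (344 ± 44.1), AGR1/8 roots (315 ± 32.1), AGR3/8 roots (313 ± 18.5) and wild type roots (199.6 ± 36.8, SD, n = 4). Each neighbouring pair overlapped in range, except AGR3/8 roots and wild type roots. For PRR95 the shoots followed the order AGR3/8, AGR1/7, AGR1/8 and wild type, and the roots AGR1/7, AGR1/8, AGR3/8 and wild type. The ranges did not overlap at 3 steps of that order, AGR1/8 shoots to wild type shoots, wild type shoots to AGR1/7 roots, and AGR3/8 roots to wild type roots. Both PRR73 probe sets also placed AGR3/8 shoots first and wild type roots last. On the first, ranges did not overlap from AGR1/8 shoots to AGR1/7 shoots, from AGR1/7 shoots to AGR3/8 roots, and from AGR1/8 roots to wild type roots. On the second, they did not overlap from AGR3/8 shoots to AGR1/8 shoots and from AGR1/7 shoots to AGR3/8 roots. The share of all tested probe sets with such steps was not computed, so the steps only describe these arrays. Wild type roots were the dimmest group for every PRR probe set.

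Across arrays the PRR probe sets varied as follows. Over the 16 root arrays PRR1 and PRR95 had a Pearson r of 0.92, PRR1 and the first PRR73 probe set 0.82, and PRR95 and the first PRR73 probe set 0.90. Over the 16 shoot arrays the same pairs gave 0.03, -0.56 and 0.23. The second PRR73 probe set had 0.74 in root and 0.71 in shoot with PRR95, and 0.71 in root and -0.44 in shoot with PRR1. With each group's mean removed, over all 32 arrays, PRR1 had an r of 0.07 with PRR95, and 0.00 and 0.08 with the first and second PRR73 probe sets. PRR95 had 0.52 with the first PRR73 probe set and 0.77 with the second. These are descriptions. The arrays share groups, the wild type roots and the bright end of the AGR3/8 shoots.

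The genes most like each PRR gene were found from Pearson r over the 32 arrays after the tissue mean was removed, among named genes. For PRR95 the nearest was GI (r = 0.93, with 0.91 in root and 0.96 in shoot), the clock gene GIGANTEA that acts upstream of the heading gene Hd1 in rice. It was followed by gRASC8 (0.86), MT-2 (0.85), cystatin (0.83) and SAP3 (0.83). For PRR1 the nearest were CYCT1-1 (0.80), EGY1 (0.80), BBD1 (0.79), wsl3 (0.77) and CIPK10 (0.75), which were all called higher in transgenic roots, by 0.41, 0.68, 1.61, 0.55 and 0.96 log2 in that order. EGY1, BBD1, wsl3 and CIPK10 were called higher in transgenic shoots as well (0.46, 1.21, 0.51 and 0.39 log2), and CYCT1-1 was not (0.05). For PRR73, taken by its brighter probe set, they were ADA2 (0.91), TCTP (0.90), PDF1B (0.89), SAP3 (0.88) and AC7 (0.88). PDF1B and SAP3 were called higher in transgenic roots (0.32 and 0.36 log2), and ADA2, TCTP and AC7 were not (0.15, 0.19 and 0.17). SAP3 was on the lists of both PRR73 and PRR95. These genes were picked by r over the same arrays on which the PRR genes were called higher in transgenic roots. Their own root calls are therefore not separate evidence. Of all tested probe sets, 3.28% were called higher in root and 1.57% in either direction in shoot, for the mean of the lines.

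**Figure D3:**
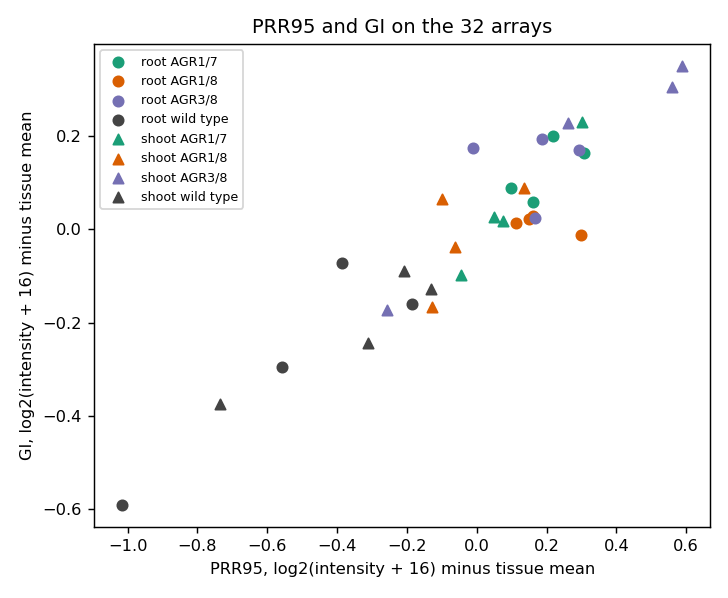
GI (y axis) against PRR95 (x axis), both as log2(intensity + 16) minus the mean of the tissue, on 32 arrays. Circles are roots and triangles are shoots, coloured by genotype. The points lie along 1 line (r = 0.93), with root wild type replicate 1 at the low end and 2 of the AGR3/8 shoots at the high end.

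Other genes of the clock loop were read from lists of symbols, of which the gene table held 1 of 8 for further PRR genes, 1 of 7 for morning MYB factors and 4 of 15 for evening genes, 2 of them with probe sets. PRR37, the further family member that was found by symbol, is a repressor of heading under long days. The probe set of PRR37 ending in S1_at had 178.6, 226.3, 169.8 and 180.4 in AGR1/7 shoots, 265.7, 191.0, 225.9 and 221.5 in AGR1/8 shoots, and 146.4, 185.5, 141.7 and 153.7 in AGR3/8 shoots, against 261.2, 266.5, 231.1 and 260.8 in wild type shoots. All arrays of AGR1/7 and AGR3/8 lay below wild type, and AGR1/8 overlapped it. The mean of the lines fell by 0.41 ± 0.09 log2 (SE, limma adjusted p = 0.0242). By line it was -0.41 in AGR1/7 (adjusted p = 0.0691), -0.17 in AGR1/8 (adjusted p = 0.556) and -0.65 in AGR3/8 (adjusted p = 0.00693). Its root effect minus shoot effect was 0.71 (adjusted p = 0.0302). The shoot call was lost without shoot wild type 1 (-0.40, adjusted p = 0.0748), 2 (-0.39, adjusted p = 0.0952) or 4 (-0.40, adjusted p = 0.0661), and the contrast of tissues without those arrays (adjusted p of 0.0553, 0.0723 and 0.0590) or root wild type 4 (0.61, adjusted p = 0.0639). The shoot call was also lost in the fit of all 32 arrays (adjusted p = 0.0918) and with the line as a random unit (adjusted p = 0.303), and the contrast of tissues with an added constant of 1 (0.87, adjusted p = 0.0543). The second PRR37 probe set, ending in S2_at, was not called in either tissue and gave 0.06 in shoot (interval -0.08 to 0.21), so the probe sets of this gene differed in their calls.

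LHY, the morning MYB factor that PRR proteins repress, was not called for the mean of the lines in root (-0.13, interval -0.29 to 0.03, limma adjusted p = 0.303) or in shoot (-0.31, interval -0.55 to -0.07, adjusted p = 0.203). Under quantile normalization the shoot mean was called lower (-0.46, adjusted p = 0.00759). LHY differed among the lines. AGR1/7 roots had 541.6, 488.2, 477.5 and 492.0, AGR1/8 roots 700.7, 761.1, 783.2 and 718.5, and AGR3/8 roots 834.7, 828.0, 833.6 and 839.0, against 684.7, 913.4, 657.5 and 740.1 in wild type roots. The 4 AGR1/7 roots were the lowest of all roots, and the other lines overlapped wild type. LHY fell by 0.56 log2 in AGR1/7 roots (adjusted p = 0.00784) and by 0.65 in AGR1/7 shoots (adjusted p = 0.0188), and the test among lines gave an adjusted p of 0.000267 in root and 0.0235 in shoot. The AGR1/7 shoot call was lost without shoot wild type 2 (-0.61, adjusted p = 0.0737) or 3 (-0.64, adjusted p = 0.0653) or AGR1/7 3 (-0.59, adjusted p = 0.0755) or 4 (-0.59, adjusted p = 0.0750). The shoot call among lines was lost without AGR1/7 3 (adjusted p = 0.0722) or 4 (adjusted p = 0.0580) or AGR3/8 2 (adjusted p = 0.0839) or 3 (adjusted p = 0.0763), and under quantile normalization (adjusted p = 0.0687). A second LHY probe set stayed between 0.4 and 6.2 on every array and was too dim to be tested.

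PCL1, the rice relative of the evening complex factor LUX, also differed among the lines in root (limma adjusted p = 0.0116). AGR1/7 roots had 88.6, 63.6, 70.2 and 84.7, AGR1/8 roots 72.0, 67.6, 72.2 and 66.0, and AGR3/8 roots 46.3, 56.0, 28.8 and 31.1, against 30.8, 30.2, 33.0 and 35.1 in wild type roots. AGR1/7 and AGR1/8 lay wholly above wild type and AGR3/8 overlapped it. PCL1 rose by 0.93 log2 in AGR1/7 (adjusted p = 0.00453) and 0.82 in AGR1/8 (adjusted p = 0.00269), with 0.20 in AGR3/8 (adjusted p = 0.409), and the mean by 0.65 (adjusted p = 0.00598). At these low intensities the size depended on the added constant. With 1 in place of 16 the differences were 1.21 in AGR1/7, 1.08 in AGR1/8 and 0.86 for the mean, and with 64 they were 0.54, 0.47 and 0.38 in the same order, all still called. The test among lines was lost without AGR3/8 3 (adjusted p = 0.0581) or AGR3/8 4 (adjusted p = 0.0550). PRR1 and PRR95 in the same AGR3/8 roots had differences of 0.62 and 0.69. In shoots PCL1 was called in AGR1/7 (0.85, adjusted p = 0.0425), a call that held in 8 of 16 fits with an array left out, and not for the mean of the lines (0.57, adjusted p = 0.101). With the line as a random unit the mean PCL1 root difference was not called (adjusted p = 0.135).

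GI had 3603.6, 3694.8, 3422.0 and 3349.8 in AGR1/7 roots, 3186.9, 3266.8, 3245.5 and 3283.3 in AGR1/8 roots, and 3268.6, 3630.8, 3679.5 and 3621.8 in AGR3/8 roots, against 2131.2, 3056.8, 2617.5 and 2877.0 in wild type roots. All 12 transgenic roots were above wild type, and the mean rose by 0.37 ± 0.07 log2 (SE, limma adjusted p = 0.0126, and 0.0678 with the line as a random unit). In shoots the difference was 0.28 (interval 0.07 to 0.48, adjusted p = 0.188), and it was called without shoot AGR3/8 1 (0.32, adjusted p = 0.0374). GI did not share the tissue gap of the PRR genes, with root minus shoot of 0.03 in wild type (interval -0.19 to 0.24, adjusted p = 0.835). Of the clock loop outside the 3 PRR genes, 2 of 5 tested probe sets rose in root for the mean of the lines, and 0 of 5 rose and 1 fell in shoot. Of all 38130 tested probe sets, 1250 (3.28%) rose in root, and 348 rose and 251 fell in shoot.

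**Figure D4:**
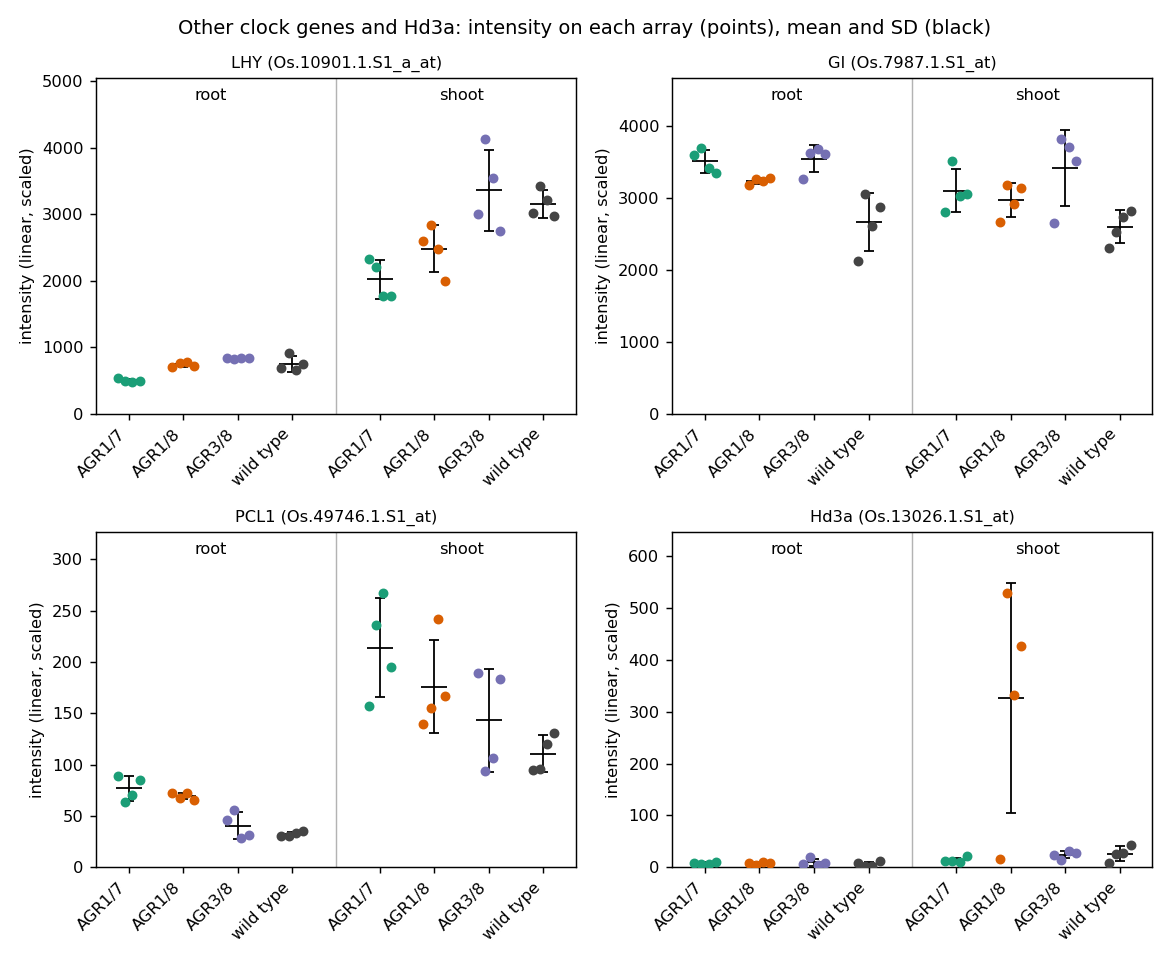
Intensity (y axis, linear scale as deposited, starting at 0) of LHY, GI, PCL1 and Hd3a on each array, for the 3 lines and wild type in root (left of each panel) and shoot (right). Points are arrays, and black marks are group means with SD (n = 4). LHY is lowest in AGR1/7 in both tissues, and Hd3a is bright on 3 of the 4 AGR1/8 shoot arrays.

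Genes that read out the clock were taken from a list of flowering genes with 15 tested probe sets. For the mean of the lines 0 were called in shoots, where 1.57% of all tested probe sets were. In transgenic roots 2 rose, where 3.28% of all tested did. The pair were the probe set of MADS18 (0.65 log2, limma adjusted p = 0.0365) and 1 of the 4 probe sets of MADS14 (0.73, adjusted p = 0.0410, with 0.32 to 0.65 and adjusted p of 0.0743 to 0.177 on the others), which encode MADS-box factors of floral meristem identity. Under 9 other settings this MADS14 probe set was called in 4, with 0.38 to 1.06, and MADS18 in 5, with 0.43 to 0.69. Of 16 fits that left out a root array, MADS14 was called in 7, with 0.57 (adjusted p = 0.168) without root wild type 1, and MADS18 in 9, with 0.43 (adjusted p = 0.136) without root wild type 1.

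In AGR1/8 shoots 5 of the 15 rose, where 1.11% of all tested probe sets did, and this group was picked out after its values were seen. Hd3a, the mobile florigen, had 16, 529.7, 333.0 and 426.4 in AGR1/8 shoots, and 11.6, 11.4, 9.7 and 21.3 in AGR1/7 shoots and 24.0, 14.9, 32.1 and 27.2 in AGR3/8 shoots, against 7.7, 26.2, 27.5 and 43.2 in wild type shoots. It was therefore bright on 3 of the 4 AGR1/8 arrays and at the level of the other groups on replicate 1. The difference was 2.51 ± 0.59 log2 (SE, adjusted p = 0.0324). The 4 MADS14 probe sets rose there too, by 1.63 to 2.28, and their size depended on the added constant, with 2.16 to 3.56 for 1 and 0.74 to 1.36 for 64. Calls of 2 of them were lost with an added constant of 1 (adjusted p = 0.176 and 0.0508) and with no filter (adjusted p = 0.0725 and 0.0599), and so was that of Hd3a (adjusted p = 0.0553 and 0.0732). On MADS14 the same replicate 1 was at the level of the other shoots (10.0 on 1 of the probe sets, with 189.7, 147.7 and 268.7 on replicates 2, 3 and 4). The Hd3a call was lost without AGR1/8 2, 3 or 4 or wild type 1, 2 or 3, with 2.09 to 2.55 log2 and an adjusted p of 0.0755 to 0.138. Each MADS14 probe set also lost its call without AGR1/8 2, 3 or 4 (adjusted p of 0.0545 to 0.135). For PRR95, replicate 1 was the lowest AGR1/8 shoot, at 4726.2 with 4826.0 to 5677.4 on the others, and it was the lowest shoot of the other genotypes too. For PRR1 and both PRR73 probe sets, replicate 1 of AGR1/8 shoots lay within the range of the others.

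Light receptors and the hormone response regulators were the last lists. Of all 38130 tested probe sets, 3.28% rose and 777 fell in root for the mean of the lines, and 348 rose in shoot. Of 4 tested light receptor probe sets 2 rose in root. Both belong to the phytochrome PHYA (0.42 log2, limma adjusted p = 0.0271, and 0.39, adjusted p = 0.00918). Neither was called with the line as a random unit (adjusted p = 0.118 and 0.0678), and with wild type root 1 left out the first had 0.28 (adjusted p = 0.0810), and with wild type root 3 left out 0.43 (adjusted p = 0.0568). Of 11 tested probe sets of the cytokinin response regulators, which share the receiver domain from which the pseudo-response regulators take their name, 1 rose in root and 0 fell. It was RR24, with 0.37 (adjusted p = 0.0241), which was not called with the line as a random unit (adjusted p = 0.119) or without root wild type 1 (0.26, adjusted p = 0.0712) or 3 (0.36, adjusted p = 0.0623). The median of that list was -0.09, against 0.51 for the PRR probe sets. Among the tissue markers 1 of 6 root probe sets, LSI1, rose in root (0.24, adjusted p = 0.0424) and 1 of 12 shoot probe sets, PORA, rose in shoot (0.70, adjusted p = 0.0209), and their part in the PRR differences was not tested. The LSI1 call held in 5 of 16 fits that left out an array and under 4 of 9 other settings, with 0.088 under quantile normalization (adjusted p = 0.273). The PORA call was lost without shoot wild type 1 (0.72, adjusted p = 0.0514) or 2 (0.54, adjusted p = 0.113) and with the line as a random unit (adjusted p = 0.155).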

How the data were processed

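The deposited table gives an intensity per probe set and array on a linear scale. As read from these intensities, the mean after trimming 2% at each end was 100.01 to 100.02 on every array. The software behind them is not stated in the labels used here, and the number of arrays limits the precision. Groups came from the labels, which call the replicates biological.

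From 57381 probe sets 187 controls were left out. Intensities were taken as log2(intensity + 16), and the dimmest 33.3% of probe sets in each fit were dropped, leaving 38130 tested, among them all 4 PRR probe sets. The tool was limma 3.58.1 under R 4.3.3 (lmFit, eBayes with an intensity trend), with 1 fit of 16 arrays per tissue and 1 of all 32 arrays for contrasts across tissues. Adjusted p (Benjamini-Hochberg, all tested probe sets of a fit) under 0.05 was a call, and intervals are 95% and unadjusted. The pipeline was tested on simulated data. No array pair was identical. The main fits did not pair arrays by replicate number. Correlations of deviations from the group mean, between same-numbered arrays of different groups, were -0.17 to 0.42 in root and -0.05 to 0.19 in shoot. Their medians were 0.049 in root and 0.026 in shoot, against -0.019 and -0.0059 for arrays of other numbers. These values cover all tested probe sets and cannot decide the question for single genes. In shoot, replicate 1 was the lowest array of each genotype for PRR95 and GI.

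The members, lists and tests were chosen with earlier results of these data known. Named genes are all probe sets of the 3 genes and of the other clock lists, up to 4 called members of each further list with the smallest p for the mean of the lines, and the 5 named genes with the highest r. Hd3a, and MADS14 in AGR1/8 shoots, fall outside this rule and were chosen after their values were seen. The symbols of 4 evening genes were found in the gene table and 2 of these, GI and PCL1, had probe sets. No blue light F-box gene was found by symbol. Gene names come from the array's annotation table, which gave 22436 probe sets a single gene, 95 several and 34663 none. Alternatives were other added constants, no filter, median centring, quantile normalization, array weights, a replicate block, 1 fit of 32 arrays, the line as a random unit, and each array left out. The fit with the line as a random unit used a correlation shared by all probe sets, and its error still came from arrays, so it is not a test with lines as replicates.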

Additional observations from a re-analysis of the deposited data

Results flagged for a closer look

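Of 32 groups of 4 arrays checked for a value far from the rest, 1 stood out, where chance alone marks about 1 in 20. It was the first PRR73 probe set in AGR1/8 shoots, where replicate 3 had an intensity of 1014.8 and the nearest of the others 941, a gap of 0.875 of the group's range on the log2 scale, above Dixon's 95% critical value. The group had a mean of 956 ± 39.3 (SD, n = 4).

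The same probe set was marked because its transgenic effect differed between tissues. For the mean of the lines the root effect minus the shoot effect was 0.38 log2 (limma adjusted p = 0.0273), and for AGR1/7 it was 0.47 (adjusted p = 0.0207). In AGR1/7 the differences from wild type were 0.36 in root and -0.12 in shoot. The second probe set of the gene gave 0.18 (adjusted p = 0.496) for the mean of the lines and 0.33 (adjusted p = 0.260) for AGR1/7.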

How the results depend on the processing

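PRR1 and PRR95 stayed called higher in root for the mean of the lines under all 9 other settings, with 0.56 to 0.71 log2 for PRR1 and 0.54 to 0.73 for PRR95, and without each of 16 arrays, with 0.56 to 0.76 and 0.55 to 0.83. The first PRR73 probe set kept that call under 8 of 9 settings and without each array, but had 0.35 (limma adjusted p = 0.0628) with the line as a random unit. The second lost it with no filter (0.32, adjusted p = 0.0569), with array weights (0.22, adjusted p = 0.0691) and with the line as a random unit (0.32, adjusted p = 0.162), and ranged from 0.23 to 0.39 as arrays were left out. With the line as a random unit 2 PRR probe sets were called in root, against 4. Line calls in root ranged from 5 to 9 over arrays left out, with 5 without AGR3/8 3, against 9 in all.

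A replicate block changed few PRR calls. It gave 1 call for the mean of the lines in shoot, PRR95 (0.46, adjusted p = 0.0282), 1 for single lines in shoot and 1 among the lines in shoot, each against 0. Quantile normalization gave 1 call for the mean in shoot, PRR95 (0.25, adjusted p = 0.0477), 2 for single lines there, and 3 in root effect minus shoot effect against 1, with the second PRR73 probe set at 0.40 (adjusted p = 0.0360) and PRR95 at 0.54 (adjusted p = 0.0226). Array weights gave 1 call among lines in root, 1 in shoot and 1 for single lines in shoot, against 0, and 0 in root effect minus shoot effect, where the first PRR73 probe set had 0.28 (adjusted p = 0.0599). A fit of all 32 arrays gave 3 calls of single lines in shoot. Leaving out arrays gave 0 to 1 calls for the shoot mean, 0 to 2 for single lines in shoot, 0 to 1 among lines in shoot and 0 to 1 for root effect minus shoot effect. PRR95 ranged there from 0.33 to 0.53 for the shoot mean, and the first PRR73 probe set from 0.31 to 0.43 for root effect minus shoot effect.

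Reversals concerned values that were not called, before or after. Quantile normalization gave -0.0082 for the second PRR73 probe set and the shoot mean, and in AGR3/8 shoots -0.028 for the first PRR73 probe set, -0.041 for the second PRR37 probe set and -0.27 for LHY. LHY in AGR1/8 roots had 0.0016 under quantile normalization and 0.014 under median centring. The first PRR73 probe set in AGR1/8 shoots had 0.0085 under median centring and 0.0061 with array weights. In root effect minus shoot effect, array weights gave -0.041 for the second PRR73 probe set and -0.077 for PRR95 in AGR3/8, and an added constant of 64 gave -0.067 for PCL1. Leaving out arrays also turned the sign of the first PRR73 probe set in shoot (-0.083 to 0.0026 for the mean, -0.062 to 0.024 in AGR1/8, -0.017 to 0.084 in AGR3/8). The same held for the second PRR73 probe set (-0.0095 to 0.071 in AGR1/8 shoots, -0.098 to 0.14 in the AGR3/8 contrast of tissues), PRR1 (-0.020 to 0.15 in AGR3/8 shoots) and PRR95 (-0.12 to 0.19 in the AGR3/8 contrast of tissues). Among other clock genes it held for LHY (-0.063 to 0.092 in AGR1/8 roots, -0.032 to 0.16 in AGR3/8 shoots), the second PRR37 probe set (-0.10 to 0.014 in AGR1/7 shoots) and GI (-0.0081 to 0.16 in the contrast of tissues). The cause of these changes was not tested.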
